A study of Caenorhabditis elegans with 6 samples.

Results

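The genes described here encode the enzyme families of fatty acid beta-oxidation in Caenorhabditis elegans. They were chosen by symbol: every gene of the count table named acs- (acyl-CoA synthetases), acdh- (acyl-CoA dehydrogenases), acox- (acyl-CoA oxidases), ech- (enoyl-CoA hydratases) or cpt- (carnitine palmitoyltransferases), together with hacd-1, kat-1, maoc-1 and daf-22. The genes acdh-1 and ech-6, which act in propionate breakdown, were left out. The rule gave 60 of the 46748 genes counted: 22 acs, 12 acdh, 7 acox, 9 ech and 6 cpt genes and the 4 named singly. All 60 are annotated as protein-coding, and they lie on all 6 chromosomes. By family and known role, 23 were placed in a mitochondrial list and 10 in a peroxisomal list, and the other 27, all of them acs or ech genes, were left in neither.

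RNA came from whole hermaphrodites of the wild-type strain N2 at 5 days after the last larval stage. In 3 libraries the perturbation label was T25B9.1, a gene that encodes the predicted glycine C-acetyltransferase of threonine breakdown and was targeted by RNAi. In the other 3 the label was L4440, the RNAi plasmid without an insert. No mutation or transgene is labelled in either group, and separate cultures are not stated in the labels. The p-values given here therefore measure only how far these libraries differ, which may be technical.

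Beta-oxidation shortens fatty acids from their carboxyl end in a cycle of oxidation, hydration, a second oxidation and thiolytic cleavage. A fatty acid must first be joined to coenzyme A by an acyl-CoA synthetase. Long chains enter mitochondria as carnitine esters, made by carnitine palmitoyltransferase, and the cycle there opens with an acyl-CoA dehydrogenase. Peroxisomes open the cycle with an acyl-CoA oxidase, and in worms this route also trims the side chains of ascarosides, the animal's pheromones. Intestine, muscle and hypodermis all burn fat in worms, so levels in whole animals mix tissues.

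The libraries held 25480225 to 38621940 counts in genes, and 12778 to 13752 genes had at least 10 counts in a library. The targeted gene, T25B9.1, had 219, 317 and 430 counts in the libraries labelled T25B9.1, against 90, 92 and 132 in the L4440 libraries. Its level was thus higher, not lower, where its RNAi was labelled (log2 fold change 1.73, SE 0.245, edgeR adjusted p = 0.00483). Whether the labels of the groups were exchanged, the gene truly rose or the fed RNA was itself read cannot be told from gene counts. Directions below compare libraries labelled T25B9.1 with libraries labelled L4440, by label alone.

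Of the 60 members, 54 had enough counts to be tested, and 8 of these passed the threshold of 0.05 on edgeR's adjusted p. Under the T25B9.1 label 5 of them were lower and 3 higher. The lower ones were acs-2, ech-7, acox-1.5, acs-1 and hacd-1, and the higher ones were cpt-4, acox-1.2 and cpt-5. Over all 13494 genes tested, 3.42% passed, 2.29% lower and 1.13% higher, so that the members' share of 14.8% was above the background. No test of that share was made. The members' typical change was small. Their median log2 fold change was -0.04, against 0.01 over all genes tested, and 37 of the 54 lay within 0.2 of zero. In 15 of the 54 the groups did not overlap, 12 with T25B9.1 lower and 3 with T25B9.1 higher. Over all genes tested the groups did not overlap for 17.9%, with T25B9.1 lower for 9.6% and higher for 8.29%. The 6 members with too few counts were acdh-6, acdh-8, acs-10, acs-15, acs-18 and acs-24, each with at most 8 counts in any library.

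**Figure D1:**
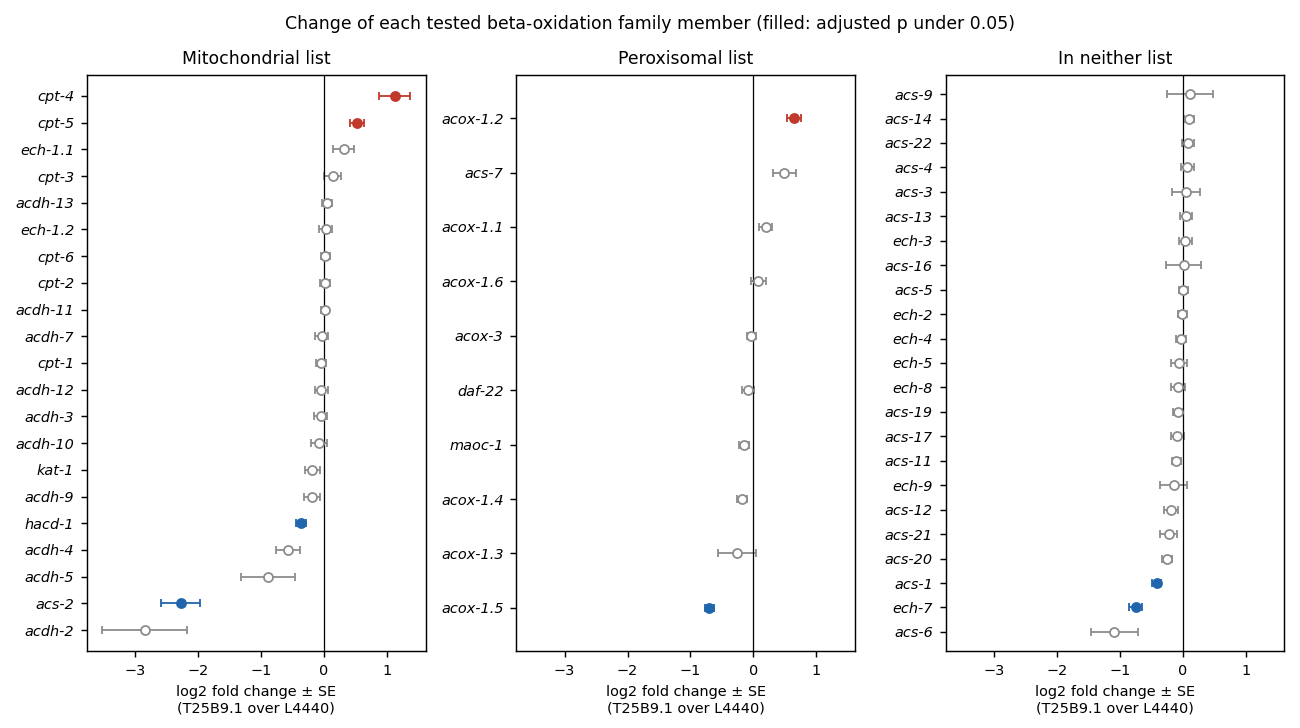
Log2 fold change of each of the 54 tested members, T25B9.1 over L4440, with its standard error, in the mitochondrial list, the peroxisomal list and neither list. Filled points passed an adjusted p of 0.05 by edgeR (red higher, blue lower), and most open points lie near zero in all 3 panels.

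Among the acyl-CoA synthetases, 2 of 18 tested members were lower and none was higher by edgeR (1 higher at an unadjusted p under 0.05, and none by DESeq2 or limma-voom). The larger fall was that of acs-2 (WBGene00009221, chromosome V, 15567394 to 15569897 in build WBcel235), a synthetase of mitochondrial fatty acid oxidation that worms induce when fasted. It had 6.15, 3.85 and 3.09 CPM (counts scaled to a common library total) in the libraries labelled T25B9.1, against 25.8, 24.1 and 13.98 CPM in the L4440 libraries. Every T25B9.1 library lay well below every L4440 library, and L4440 replicate 3 was the lowest of its group. The difference was 4.86-fold (log2 fold change -2.28, SE 0.314, edgeR adjusted p = 0.00844). The call of acs-2 was lost by edgeR without T25B9.1 replicate 2 (adjusted p = 0.102), without L4440 replicate 2 (0.0511) and when weakly counted genes were kept (0.0986), with a log2 fold change of at least 2.07 in size under every alternative.

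The other synthetase that fell was acs-1, which activates the branched-chain fatty acids that worms make themselves. Its level was 181, 175 and 164 CPM in the libraries labelled T25B9.1, against 233, 228 and 234 CPM in the L4440 libraries. The L4440 libraries averaged 231.3 ± 3.39 CPM (SD, n = 3), and the groups did not overlap (log2 fold change -0.42, SE 0.0656, edgeR adjusted p = 0.00541). The synthetase gene acs-20, of the fatty acid transport protein type and needed for the cuticle's surface barrier, averaged 25.1 ± 0.861 CPM in the libraries labelled T25B9.1 and 29.9 ± 1.42 CPM in the L4440 libraries (SD, n = 3 each). Its groups did not overlap, but it did not pass (log2 fold change -0.25, SE 0.0739, edgeR adjusted p = 0.119).

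The 3 synthetase genes with the highest levels per exon length did not pass. The long-chain type genes acs-13 and acs-4 had log2 fold changes of 0.05 (SE 0.0928) and 0.07 (SE 0.100), and acs-19, of the acetyl-CoA synthetase type, had -0.07 (SE 0.0796). The relative of acs-20, acs-22, had 0.08 (SE 0.101) and did not pass either. The remaining tested synthetases outside both lists ran from -1.09 for acs-6, with 4 to 19 counts per library, to 0.12 for acs-9, with 8 to 21.

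Among the carnitine palmitoyltransferases, 2 of 6 were higher and the well expressed members did not pass. The gene cpt-1, for the enzyme that commits long-chain fatty acids to mitochondria, averaged 373 ± 14.9 CPM in the libraries labelled T25B9.1 and 384 ± 27.8 CPM in the L4440 libraries (SD, n = 3 each). The inner-membrane enzyme gene cpt-2 averaged 169 ± 12.5 and 167 ± 14.3 CPM in the same order. Neither passed (log2 fold changes -0.04 and 0.02, edgeR adjusted p = 0.903 and 0.955), and these differences were smaller than the spread within each group.

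The weakly expressed paralogs cpt-4 and cpt-5, both on chromosome V, rose. In the libraries labelled T25B9.1 cpt-4 had 135, 127 and 204 counts, against 50, 56 and 126 counts in the L4440 libraries. Scaled to library size these were 4.15, 5.10 and 5.74 CPM against 1.44, 2.24 and 3.13 CPM, so that the groups did not overlap, and L4440 replicate 3 was the highest of its group. The difference was 2.18-fold (log2 fold change 1.12, SE 0.248, edgeR adjusted p = 0.0391). For cpt-5 the levels were 13.6, 14.6 and 17.3 CPM in the libraries labelled T25B9.1, against 10.2, 10.2 and 11.3 CPM in the L4440 libraries (log2 fold change 0.53, SE 0.111, edgeR adjusted p = 0.0267).

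The calls of both were lost under some alternatives. By edgeR, cpt-4 did not pass without T25B9.1 replicate 1, 2 or 3 (adjusted p = 0.0527, 0.111 and 0.110), without L4440 replicate 2 (0.185) or among genes with a mean of at least 50 counts (0.0538). By edgeR, cpt-5 did not pass without T25B9.1 replicate 2 or 3 (adjusted p = 0.0540 and 0.102) or without L4440 replicate 1 or 2 (0.0729 and 0.121). Both stayed higher under every alternative, with log2 fold changes of 0.85 to 1.47 for cpt-4 and 0.42 to 0.60 for cpt-5. The other paralogs, cpt-3 and cpt-6, had log2 fold changes of 0.14 (SE 0.138) and 0.02 (SE 0.0708) and did not pass.

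**Figure D2:**
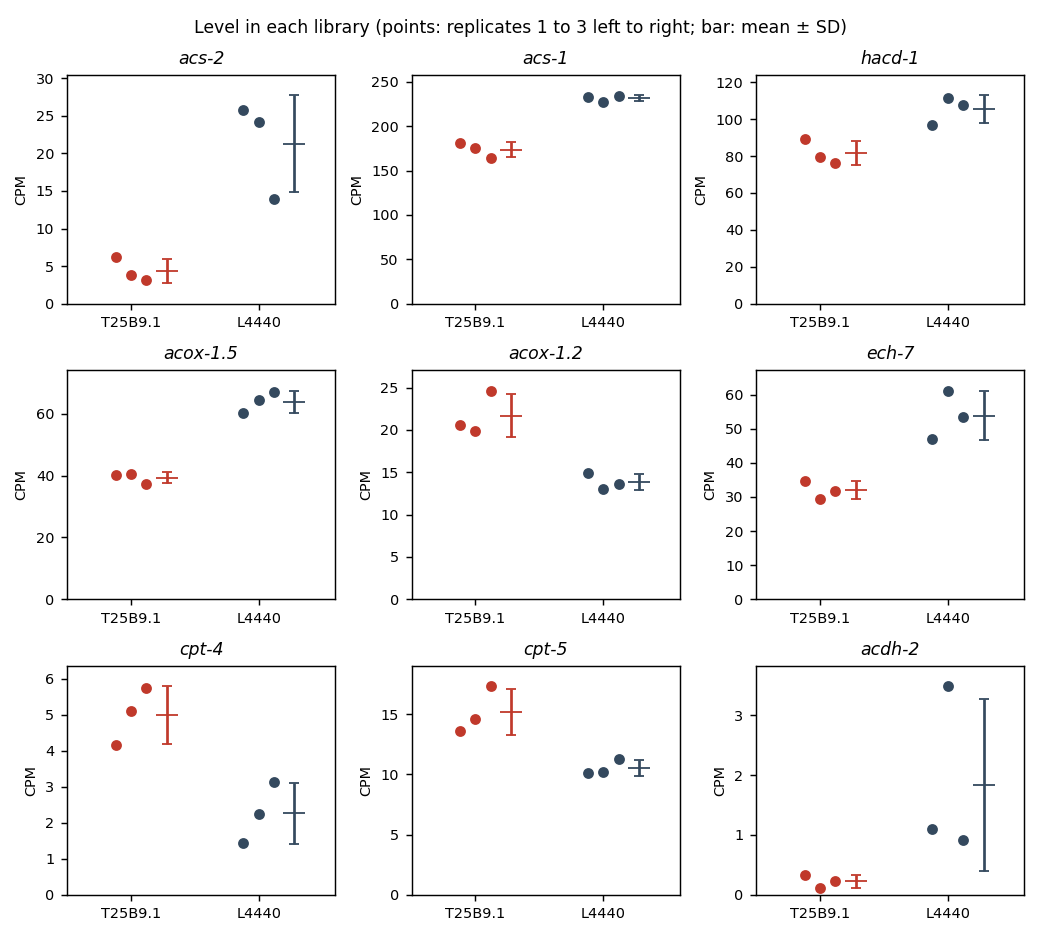
CPM in each library for the 8 members that passed and for acdh-2, with T25B9.1 on the left and L4440 on the right of each panel, and the mean ± SD (n = 3) beside the points. The 2 groups do not overlap in any panel, and acdh-2 and cpt-4 have the widest spread relative to their mean in the L4440 libraries.

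The first oxidation step is taken by dehydrogenases in mitochondria and by oxidases in peroxisomes. None of the 10 tested acdh genes passed by edgeR, while 2 had an unadjusted p under 0.05, 1 passed by DESeq2 and none by limma-voom. Of the 7 acox genes 1 was lower and 1 higher. The abundant dehydrogenases acdh-3, acdh-7, acdh-10, acdh-11, acdh-12 and acdh-13 had log2 fold changes between -0.08 and 0.05. Among them acdh-12, of the very-long-chain type, averaged 194 ± 16.1 CPM in the libraries labelled T25B9.1 and 200 ± 29.4 CPM in the L4440 libraries (SD, n = 3 each). For acdh-9 the log2 fold change was -0.19 (SE 0.127). The medium-chain type genes acdh-7 and acdh-10 are neighbours on chromosome X, 114 bases apart on the same strand, and had log2 fold changes of -0.03 (SE 0.102) and -0.08 (SE 0.129). For acdh-11, which binds fatty acyl-CoA and restrains a desaturase gene in warm conditions, the means were 73.5 ± 3.66 and 73.0 ± 2.14 CPM in the same order.

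The largest fold among all tested members was that of acdh-2, a close relative of acdh-1 expressed at very low level. It had 11, 3 and 8 counts in the libraries labelled T25B9.1, against 38, 87 and 37 counts in the L4440 libraries. The exact Poisson 95% intervals of these counts, which cover counting error only, reached at most 19.7 in the libraries labelled T25B9.1 and began at 26.1 or above in the L4440 libraries. The fitted log2 fold change was -2.85 (SE 0.677), short of the threshold by edgeR (adjusted p = 0.0708). L4440 replicate 2 held the most. Without it the log2 fold change was -2.08 and acdh-2 passed by edgeR (adjusted p = 0.0134), as it did without L4440 replicate 3 (0.0467), and over all alternatives the adjusted p ran from 7.36e-06, by DESeq2, to 0.387. Its exons overlap those in the model of ins-13 by 87 bases. The other weak genes acdh-4 and acdh-5 had log2 fold changes of -0.57 (SE 0.194) and -0.89 (SE 0.433) and also stayed above the edgeR threshold (adjusted p = 0.193 and 0.433).

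The oxidase family held changes in both directions. The most abundant member per exon length, acox-1.5 (WBGene00008167, chromosome III, 9586618 to 9592192), fell, with 40.2, 40.5 and 37.4 CPM in the libraries labelled T25B9.1 against 60.1, 64.3 and 67.1 CPM in the L4440 libraries. The groups did not overlap, and their SDs were 1.73 and 3.52 CPM (n = 3 each) in the same order. Its p was the smallest among all tested members (log2 fold change -0.70, SE 0.0685, edgeR adjusted p = 0.000329). The call of acox-1.5 held under every alternative. In the other direction acox-1.2 (WBGene00008565, chromosome I, 12942280 to 12946588) rose, with 20.6, 19.8 and 24.6 CPM in the libraries labelled T25B9.1 against 14.9, 13.1 and 13.6 CPM in the L4440 libraries. Its difference was 1.57-fold (log2 fold change 0.65, SE 0.104, edgeR adjusted p = 0.00610). This call also held under every alternative.

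None of the neighbours of acox-1.2 passed. It lies in a tandem array with acox-1.1, acox-1.3 and acox-1.4, all on the plus strand of chromosome I and separated by 34 to 343 bases. By edgeR, acox-1.1, the best studied oxidase of ascaroside synthesis, had a value of 0.20 on the log2 scale (SE 0.106, adjusted p = 0.490), and for acox-1.4 the value was -0.19 (SE 0.0827, adjusted p = 0.372). The weak acox-1.3 had 15, 9 and 24 counts in the libraries labelled T25B9.1 and 21, 12 and 29 in the L4440 libraries. The differences between these neighbours' changes were not tested. How reads matching several paralogs were counted is not stated. The oxidases elsewhere in the genome, acox-1.6 and acox-3, had log2 fold changes of 0.08 (SE 0.120) and -0.03 (SE 0.0728).

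**Figure D3:**
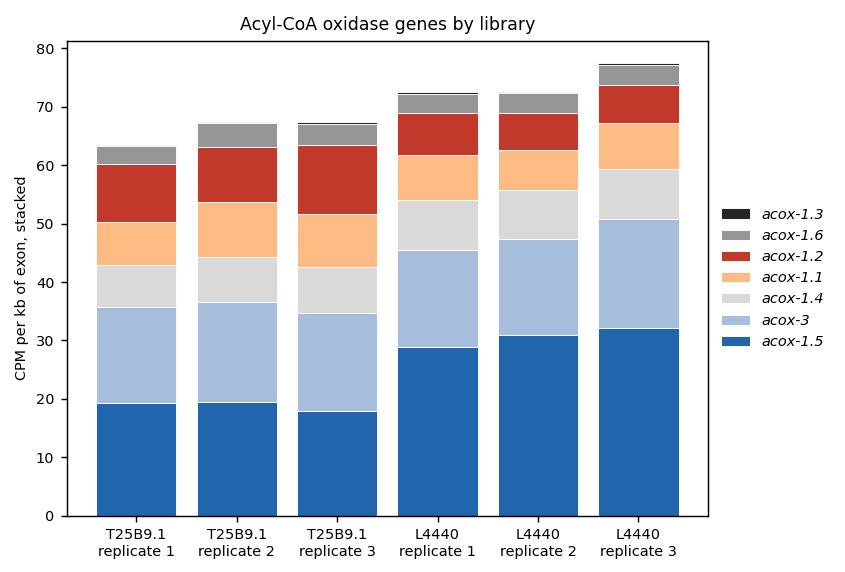
Stacked levels of the 7 acyl-CoA oxidase genes in each library, in CPM per kb of exon, with the T25B9.1 libraries on the left. The lowest block, acox-1.5, is shorter in all 3 T25B9.1 libraries and the acox-1.2 block is taller.

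The make-up of the oxidase transcripts differed between the groups. Per exon length, acox-1.5 held 28.6 ± 1.92% of the family's summed level in the libraries labelled T25B9.1 and 41.3 ± 1.37% in the L4440 libraries (SD, n = 3 each). The family's summed level was 63.5, 67.3 and 67.4 CPM per kb in the libraries labelled T25B9.1, against 72.5, 72.6 and 77.4 CPM per kb in the L4440 libraries. The sum of the tandem array alone went the other way, with a mean of 26.8 ± 2.20 CPM per kb in the libraries labelled T25B9.1 and 23.0 ± 1.0 in the L4440 libraries (SD, n = 3 each). These sums are descriptions, since their members include the genes that passed.

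The hydration and second oxidation steps held 2 falls, in ech-7 and hacd-1. The larger was that of ech-7 (WBGene00001156, chromosome I, 14367616 to 14369773), an enoyl-CoA hydratase family gene whose compartment was not assigned. It had 34.8, 29.5 and 31.8 CPM in the libraries labelled T25B9.1, against 46.8, 61.1 and 53.5 CPM in the L4440 libraries (log2 fold change -0.75, SE 0.101, edgeR adjusted p = 0.00224). All 3 T25B9.1 libraries lay below all 3 L4440 libraries, and the call held under every alternative. The mitochondrial 3-hydroxyacyl-CoA dehydrogenase gene hacd-1 had 89.2, 79.4 and 76.5 CPM in the libraries labelled T25B9.1, against 96.8, 111 and 108 CPM in the L4440 libraries. Its fall was small (log2 fold change -0.37, SE 0.0771, edgeR adjusted p = 0.0263). By edgeR it did not pass without T25B9.1 replicate 2 or 3 (adjusted p = 0.0689 and 0.108) or without L4440 replicate 2 or 3 (0.0811 and 0.0950).

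The other genes of these steps did not pass. The alpha subunit gene of the mitochondrial trifunctional protein, ech-1.2, averaged 409 ± 45.7 CPM in the libraries labelled T25B9.1 and 401 ± 45.3 CPM in the L4440 libraries (SD, n = 3 each). For its weaker paralog ech-1.1 the log2 fold change was 0.31 (SE 0.168, edgeR adjusted p = 0.490). In peroxisomes hydration is the task of maoc-1, which had 31.6, 33.6 and 29.98 CPM in the libraries labelled T25B9.1 against 34.3, 34.4 and 36.7 CPM in the L4440 libraries. The groups of maoc-1 did not overlap, yet it did not pass (log2 fold change -0.15, SE 0.0733, edgeR adjusted p = 0.446). Its start lies 634 bases from that of acdh-12, on the opposite strand, so that a peroxisomal and a mitochondrial member share an intergenic stretch on chromosome II. The hydratase family genes ech-2, ech-3, ech-4, ech-5, ech-8 and ech-9 had log2 fold changes between -0.14 and 0.04.

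A thiolase releases acetyl-CoA at the end of each turn, and neither thiolase gene chosen by the rule passed the test. The mitochondrial kat-1 averaged 123 ± 12.3 CPM in the libraries labelled T25B9.1 and 140 ± 23.2 CPM in the L4440 libraries (SD, n = 3 each; log2 fold change -0.19, SE 0.117, edgeR adjusted p = 0.601). The peroxisomal daf-22, needed for the short-chain ascarosides of dauer pheromone, averaged 29.4 ± 2.35 and 31.1 ± 2.76 CPM in the same order (log2 fold change -0.08, SE 0.0906, edgeR adjusted p = 0.811).

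Set side by side, the mitochondrial and peroxisomal lists had 19.0% and 20.0% of their tested members called, with falls and rises in equal number in each. In the mitochondrial list 2 of 21 tested members were lower (acs-2 and hacd-1) and 2 higher (cpt-4 and cpt-5). In the peroxisomal list 1 of 10 was lower (acox-1.5) and 1 higher (acox-1.2), and among the genes of neither list 2 of 23 were lower (ech-7 and acs-1) and none was higher by edgeR, whether adjusted or at an unadjusted p under 0.05, or by DESeq2 or limma-voom. The median log2 fold change was -0.04 for the mitochondrial list, -0.06 for the peroxisomal list and -0.05 for the genes in neither. Negative values were held by 12 of 21, 6 of 10 and 14 of 23 members, against 47.4% of all genes tested. Without L4440 replicate 2 the mitochondrial median was 0.07, so its sign rested on that library. In the peroxisomal list acs-7, a synthetase that activates ascaroside side chains for shortening, averaged 3.58 ± 0.754 CPM in the libraries labelled T25B9.1 and 2.55 ± 0.286 CPM in the L4440 libraries (SD, n = 3 each). It did not pass (log2 fold change 0.49, SE 0.182, edgeR adjusted p = 0.247). Its protein is known from lysosome-related organelles, and the list's median without it was -0.08.

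**Figure D4:**
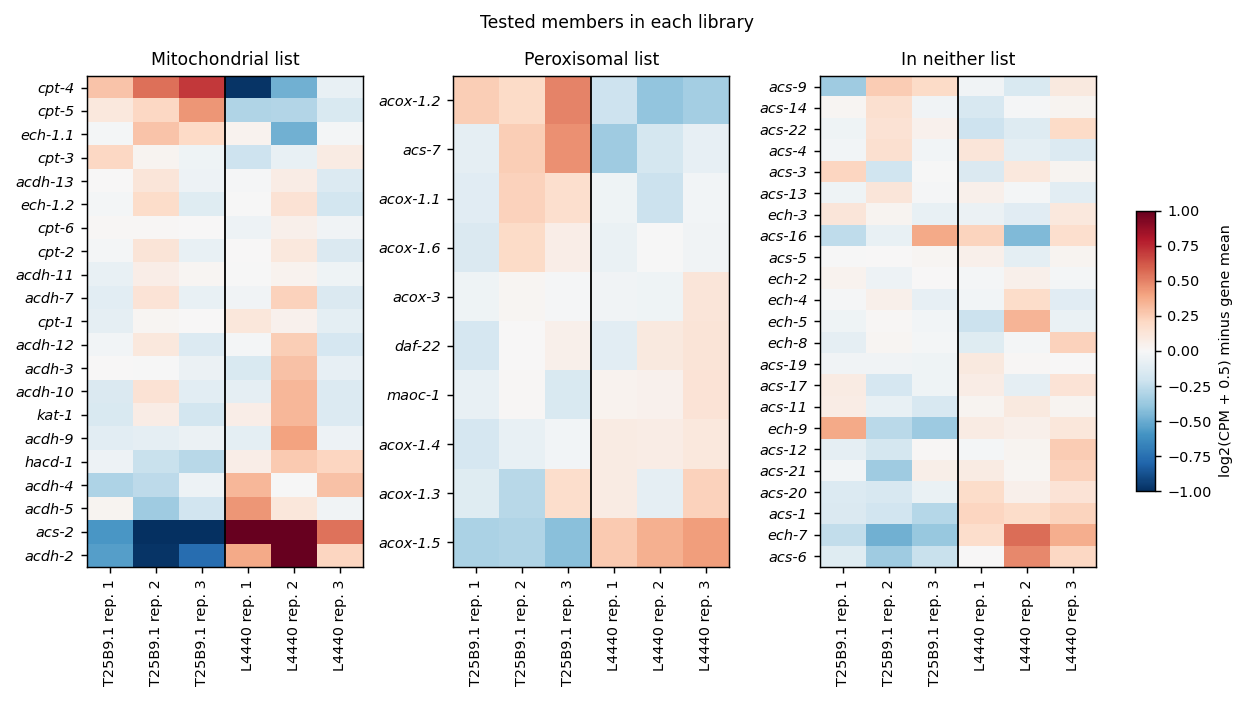
Each tested member in each library, as log2(CPM + 0.5) minus the gene's mean over the 6 libraries, in the mitochondrial list, the peroxisomal list and neither list; T25B9.1 libraries stand left of the black line and colours end at -1 and 1. L4440 replicate 2 is the highest library for 9 of the 21 mitochondrial members, among them acdh-9, acdh-10 and kat-1.

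The members also varied within groups. L4440 replicate 2 held the highest level of 9 of the 21 mitochondrial members and of none of the 10 peroxisomal ones, whereas over all genes tested it was the highest library for 22.6%. Among the mitochondrial genes, acdh-3 had 138, 189 and 145 CPM in L4440 replicates 1, 2 and 3, while the libraries labelled T25B9.1 held 154, 153 and 148 CPM. L4440 replicate 3 was highest for 6 of the 10 peroxisomal members and for none of the mitochondrial ones, against 17.3% of all genes tested. The median within-group coefficient of variation was 11.2% in the mitochondrial list, 7.88% in the peroxisomal list and 9.5% over all genes tested.

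In level, the mitochondrial list exceeded the peroxisomal list several fold in every library. Summed per exon length, its 23 members gave 967, 1055 and 943 CPM per kb in the libraries labelled T25B9.1, against 1015, 1167 and 948 CPM per kb in the L4440 libraries, and the groups overlapped. The 10 peroxisomal members gave 114.9, 124 and 122 CPM per kb in the libraries labelled T25B9.1, against 127, 131 and 138 CPM per kb in the L4440 libraries. The peroxisomal sums did not overlap, with a mean lower by 9.07%. Without acox-1.5 the means were 101.2 ± 4.86 and 101.4 ± 4.26 CPM per kb in the same order (SD, n = 3 each), and the groups overlapped. The ratio of the mitochondrial to the 10-member peroxisomal sum averaged 8.23 ± 0.413 in the libraries labelled T25B9.1 and 7.92 ± 1.04 in the L4440 libraries (SD, n = 3 each), a difference within the spread. The size of this ratio depends on the list, and the wider list would make it smaller.

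Among the tested members the mean level per exon length in the L4440 libraries reached down to 0.265 CPM per kb, for acs-6. The highest means there were those of acs-13 with 333 ± 18.9, acs-19 with 301 ± 11.1 and acs-4 with 244 ± 24.2 CPM per kb (SD, n = 3 each). The highest mitochondrial members there were ech-1.2 with 150 ± 17.0 and cpt-1 with 137 ± 9.92 CPM per kb, which do not differ beyond their spread. They were followed by kat-1, acdh-3, hacd-1 and acdh-12, all between 97.8 and 106 CPM per kb and not separated by their spread. The highest peroxisomal members were maoc-1 with 33.05 ± 1.297 and acox-1.5 with 30.6 ± 1.69 CPM per kb, then daf-22 with 23.3 ± 2.07. Of the 8 members that passed, acs-1 and hacd-1 stood among the 10 highest of 60, and cpt-4 ranked 48 and cpt-5 ranked 39. By level per exon length in the L4440 libraries acs-2 ranked 32, with 2.10 ± 0.764 CPM per kb in the libraries labelled T25B9.1 and 10.2 ± 3.08 in the L4440 libraries (SD, n = 3 each).

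**Figure D5:**
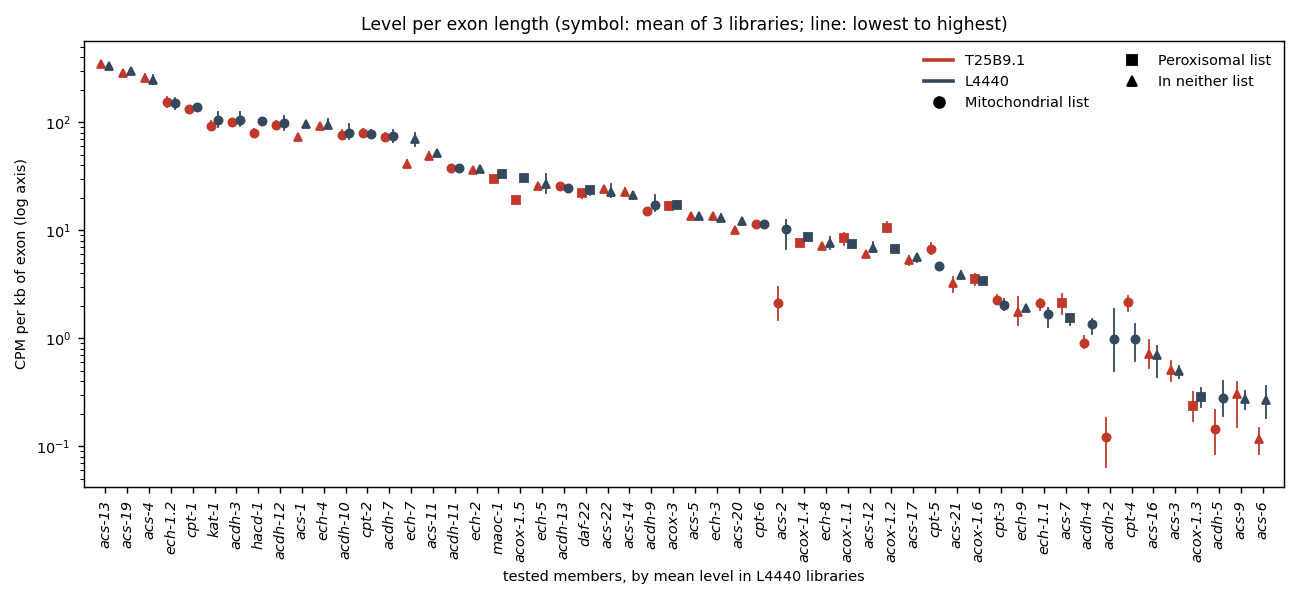
Level of the 54 tested members in CPM per kb of exon on a log axis, ordered by their mean in the L4440 libraries, with T25B9.1 drawn left of L4440 for each gene. Symbols are means of 3 libraries and mark the list, and lines run from the lowest to the highest library; acs-2 and acdh-2 show the widest gaps between groups.

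Other genes of the pathway were read from a list of 47 that held the remaining enzymes, carriers, peroxisome assembly factors, acyl-CoA binding proteins and known regulators. Of 45 tested, 1 was lower and none higher by edgeR (none higher at an unadjusted p under 0.05, by DESeq2 or by limma-voom), and 38 had a negative log2 fold change, with a median of -0.08. Over all genes tested 2.29% were lower and 1.13% higher by edgeR, and 47.4% had a negative log2 fold change. The lower gene was pmp-5, an ABC transporter gene whose cargo and compartment were not examined here. It had 14.98, 11.03 and 12.2 CPM in the libraries labelled T25B9.1, against 28.5, 29.5 and 25.5 CPM in the L4440 libraries (log2 fold change -1.12, SE 0.115, edgeR adjusted p = 0.000423). The call of pmp-5 held under every alternative. Its relatives pmp-1, pmp-2, pmp-3 and pmp-4 did not pass by edgeR (log2 fold changes -0.08, -0.04, 0.04 and 0.19). The nuclear receptor gene nhr-49, whose product drives acs-2 in fasted worms, averaged 149 ± 9.09 CPM in the libraries labelled T25B9.1 and 142 ± 5.80 CPM in the L4440 libraries (SD, n = 3 each; edgeR adjusted p = 0.773). For mdt-15, which encodes a coactivator of NHR-49, the log2 fold change was 0.15 (SE 0.118, edgeR adjusted p = 0.710). The peroxisomal hydroxyacyl-CoA dehydrogenase gene dhs-28 and the trifunctional beta subunit gene hadb-1 did not pass by edgeR either (adjusted p = 0.931 and 0.948).

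Markers of tissues were read in the same libraries, since fewer cells of a type and less RNA per cell cannot be told apart in whole animals. The 8 intestinal markers found by name summed to 778 to 931 CPM in the libraries labelled T25B9.1 and to 900 to 974 CPM in the L4440 libraries. Most of each sum came from asp-1, with 475 to 613 CPM under the T25B9.1 label and 496 to 584 CPM under L4440. Among the markers pgp-1, a P-glycoprotein gene, was lower (log2 fold change -1.25) and ifb-2, an intermediate filament gene, was higher (0.74). The other 6 did not pass by edgeR. Yet ges-1 and act-5 lay lower in every T25B9.1 library than in any L4440 library (log2 fold changes -0.28 and -0.29). The groups overlapped for elt-2, elt-7, vha-6 and asp-1. None of the 5 body-wall muscle, 4 hypodermal, 8 germline and 5 neuronal markers tested passed by edgeR, and none had an unadjusted p under 0.05 or passed by DESeq2 or limma-voom. Muscle markers summed to 380 to 529 CPM in the libraries labelled T25B9.1 and to 346 to 557 CPM in the L4440 libraries, and hypodermal markers to 296 to 308 and 276 to 321 CPM in the same order. Germline markers summed to 11130 to 12110 CPM in the libraries labelled T25B9.1 and to 10070 to 11680 CPM in the L4440 libraries, and neuronal markers to 217 to 230 and 221 to 238 CPM in the same order. The ranges of the sums overlapped for every tissue, with asp-1 included in the intestinal sum. Without asp-1 the intestinal sum was lower in every T25B9.1 library than in any L4440 library. In that remainder pgp-1 held 35.1 to 39.7 CPM under the T25B9.1 label and 73.7 to 103 CPM under L4440. The opposite change of ifb-2 was from 14.4 to 15.3 CPM under L4440 to 23.2 to 26.2 CPM under the T25B9.1 label. All 8 germline markers had positive log2 fold changes, with a median of 0.07. The larval hypodermal markers dpy-7 and rol-6 were near 0, at mean levels under 1 CPM in both groups, and no other marker was. The part of these tissues in the changes above was not tested.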

How the data were processed

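Counts per gene were deposited by the authors as whole numbers; bcl2fastq 1.8.4, STAR 2.4.1d, featureCounts 1.4.6-p4 and build WBcel235 are named per the submitters' processing notes. Libraries were made with a TruSeq version 2 kit, per the labels' protocols, and strand and multi-mapping settings are not given in the sources used here. A deposited RPKM table of the same libraries was not used. Libraries were grouped by the perturbation label. The source field instead gives T25B9.1 RNAi for every sample. Replicates are numbered in accession order and were not paired.

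Differences were tested with edgeR 4.0.16 (R 4.3.3): quasi-likelihood F-test, robust fit, TMM factors, filterByExpr with a minimum count of 10, no covariate, Benjamini-Hochberg adjustment over all 13494 genes tested (28.9%). The SE of a log2 fold change is its size over the root of F. CPM uses TMM-scaled totals, and exon lengths and positions come from Ensembl release 115 of the same build. Alternatives used limma 3.58.1 (voom), DESeq2 1.42.0, other factors and filters, each library left out, and a block. Pairs of one group had a chi-square of 6.18 to 40.8 per degree of freedom, and none was treated as a duplicate. With 3 libraries a group an exact permutation p is at least 0.1, so single genes were tested by the model.

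Genes were named by rule: every member that passed, the peroxisomal list, core and better-counted mitochondrial members (mean of at least 50 counts for acdh genes), members in neither list with an absolute log2 fold change of at least 0.5 and such a mean, the 3 nearest the threshold and any other pathway gene that passed. Others named were chosen after their values were seen. Members, lists and rules were chosen with earlier results of these data known. No protein or promoter sequence was used here. Exons of 16 members overlap another gene model, among them acs-1 (19 bases), acdh-2, acdh-3, acdh-12, acox-1.4, acs-7 and maoc-1, and their reads could be shared.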

Additional observations from a re-analysis of the deposited data

How the results depend on the processing

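With RLE or upper-quartile factors, DESeq2 or limma-voom, and among genes averaging 50 counts or more, the calls of acox-1.5, ech-7, acs-1, acox-1.2 and pmp-5 all held, as they did without each library in turn; those of acs-2, hacd-1, cpt-4 and cpt-5 were lost under the settings given with their values. Leaving out 1 library gave 3 to 5 lower and 1 to 3 higher members and 272 to 517 genes called in all, and no filter on low counts gave 719 against 461. The same left-out libraries moved the median log2 fold change between -0.107 and 0.0659 for the mitochondrial list and between -0.124 and -0.0049 for the peroxisomal list. Single members were followed across settings only where named by rule, so other members near zero were not checked for a change of sign. Of those followed that did not pass, the sign turned for acdh-3 (-0.154 to 0.0852), acdh-7 (-0.122 to 0.0684), acdh-10 (-0.182 to 0.0709), acdh-11 (-0.0309 to 0.0472), acdh-12 (-0.132 to 0.0659), acdh-13 (-0.005 to 0.0893), acox-1.6 (-0.0074 to 0.172), acox-3 (-0.0756 to 0.0254), cpt-2 (-0.0466 to 0.07) and ech-1.2 (-0.0708 to 0.0992) when a library was left out. With the replicate block of consecutive library numbers, which the labels do not state to be pairs, 597 genes passed, 6 members lower and 3 higher, acdh-2 being added (adjusted p = 0.0152); deviations of such pairs correlated at -0.14, 0.17 and 0.35. Low counts limit acdh-5, acs-6, acs-9, acox-1.3 and acdh-2, the tested members with the fewest counts, and left 6 members untested. The cause of these changes was not tested.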
